A study of Danio rerio with 8 samples.

Results

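Excitation-contraction coupling is the step by which a muscle fibre turns an electrical signal into a rise of calcium. A voltage-sensing channel in the surface membrane, held in place by an adaptor protein, opens the ryanodine receptors of the sarcoplasmic reticulum, the calcium store of the fibre. Calsequestrins bind calcium inside that store, and SERCA pumps return it there after each contraction. In the zebrafish embryo the trunk muscle already twitches and swims with this machinery, and the pump gene atp2a1 and the adaptor gene stac3 are both known from mutants with impaired movement. The 10 genes described here encode its main parts in skeletal muscle: the voltage sensors cacna1sa and cacna1sb, the adaptor stac3, the release channels ryr1a, ryr1b and ryr3, the calsequestrins casq1a and casq1b, and the pumps atp2a1 and atp2a1l. They were taken by gene symbol from a table of 36351 rows, and each symbol matched 1 row. In the RefSeq annotation of another assembly, GRCz12tu, the 10 genes lie on 10 different chromosomes.

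The RNA came from pools of whole embryos at 26 hours post fertilisation (hpf). There were 4 pools of MZ osgep G177A/G177A embryos, in which the mother as well as the embryo carried only the G177A allele of osgep, called mutant below, and 4 pools of wild-type embryos. osgep encodes the catalytic subunit of KEOPS, a complex that modifies tRNAs. No treatment is named for either group, and embryos of both came from single and group crosses. The labels do not tie a pool to a clutch or give its number of embryos. Each p-value therefore refers to variation among pools, part of which may be technical. The libraries held 21420070 to 27675104 expected counts in the mutant and 21290942 to 24556327 in wild type. osgep itself measured 10.7 ± 2.25 CPM (counts scaled to library size) in the mutant and 19.2 ± 3.24 CPM in wild type (SD, n = 4 each), but the counts do not separate alleles.

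All 10 genes were lower in the mutant. For each of them the 4 mutant pools lay below the 4 wild-type pools. A filter on low counts kept 9 of the 10. Among all genes that it kept, 17.6% had the 4 mutant pools below the 4 wild-type pools. Each of the 9 passed the test across the genome as lower (edgeR quasi-likelihood test, Benjamini-Hochberg adjustment, threshold 0.05), against 16.3% of the 22467 tested genes. Of the 9, casq1b passed that filter only through its wild-type libraries, so its call follows in part from the filter. A fall of at least 2-fold was found for 7 of them, against 7.79% of tested genes. The median log2 fold change (mutant minus wild type) of the 9 was −2.13, beside 0.004 over all tested genes. The fold change was largest for casq1b, and the mean in the mutant was nearest to wild type for ryr1a and ryr1b. In pools of whole embryos, fewer muscle cells and less RNA per muscle cell cannot be told apart.

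**Figure D1:**
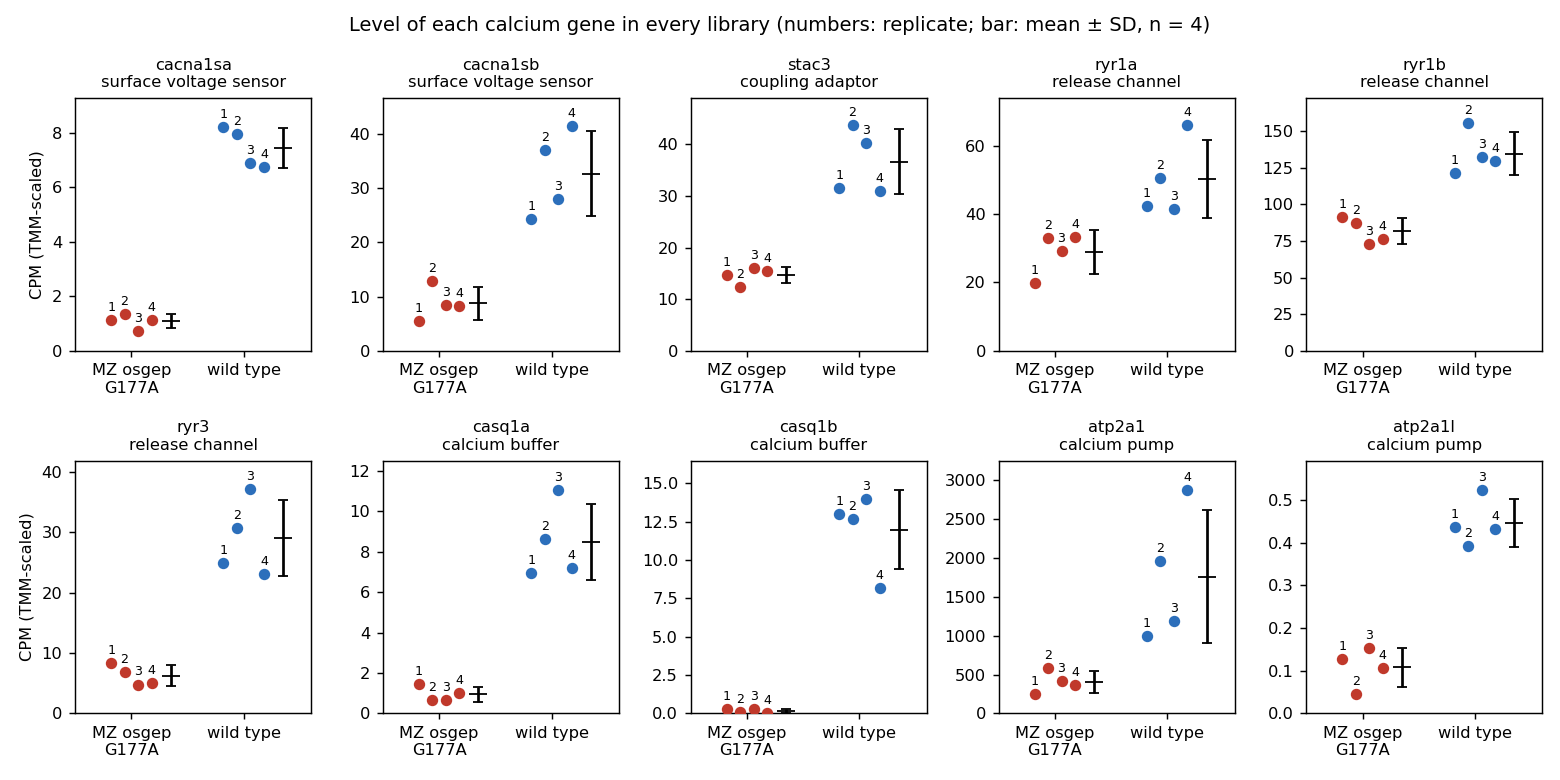
CPM of each of the 10 genes in every library, with mutant pools on the left and wild-type pools on the right of each panel. Points are libraries numbered by replicate and the bar is the mean ± SD of 4 libraries. In every panel the mutant points sit below the wild-type points, and in casq1b they sit close to 0.

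The voltage sensor of skeletal muscle is the alpha-1 subunit of the L-type calcium channel, which in zebrafish exists as a copy used mainly in slow fibres, cacna1sa, and a copy used mainly in fast fibres, cacna1sb. cacna1sa (ENSDARG00000029457) measured 1.14, 1.34, 0.728 and 1.14 CPM in mutant pools 1 to 4, against 8.22, 7.95, 6.91 and 6.74 CPM in wild-type pools 1 to 4. The mutant values lay far below the wild-type values, with mutant pool 3 the lowest, and the difference was a log2 fold change of −2.78 (SE 0.22, adjusted p = 6.09e-05). cacna1sb (ENSDARG00000042552) measured 5.47, 12.8, 8.42 and 8.32 CPM in the mutant pools, against 24.3, 37.0, 28.0 and 41.4 CPM in the wild-type pools. It varied more within each genotype: mutant pool 1 was the lowest of its group, and wild-type pools 2 and 4 stood above pools 1 and 3. The log2 fold change was −1.90 (SE 0.27, adjusted p = 0.00118).

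stac3 encodes the adaptor that binds the voltage sensor and is needed for its coupling to the release channel. stac3 (ENSDARG00000098883) stood at 14.7, 12.4, 15.97 and 15.5 CPM in the mutant pools and at 31.6, 43.8, 40.2 and 31.0 CPM in the wild-type pools. The mutant pools lay close together, and the groups did not overlap. Its mean in the mutant was 39.96% of that in wild type (log2 fold change −1.32, SE 0.15, adjusted p = 0.00035).

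The release channels are ryanodine receptors, very large proteins that form the calcium gate of the reticulum. In zebrafish ryr1a is the copy used mainly in slow fibres and ryr1b the copy used mainly in fast fibres, while ryr3 does not receive the direct signal of the voltage sensor. ryr1a (ENSDARG00000011422) measured 19.7, 33.1, 29.3 and 33.3 CPM in the mutant pools, against 42.4, 50.7, 41.4 and 66.2 CPM in the wild-type pools. Mutant pool 1 was again the lowest and wild-type pool 4 the highest, and the log2 fold change of −0.80 had the largest adjusted p of the 9 genes (SE 0.21, adjusted p = 0.0182). ryr1b (ENSDARG00000023797) measured 91.5, 87.4, 72.7 and 76.3 CPM in the mutant pools, against 121.6, 155.9, 132 and 129.7 CPM in the wild-type pools. Its fold change was as small as that of ryr1a but its pools agreed better (−0.72, SE 0.11, adjusted p = 0.00181).

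ryr3 (ENSDARG00000071331) fell further than either ryr1 copy. It measured 8.42, 6.87, 4.79 and 5.03 CPM in the mutant pools, against 24.998, 30.8, 37.2 and 23.1 CPM in the wild-type pools. The mean in the mutant was 21.6% of that in wild type for ryr3, while it was 57.4% for ryr1a and 60.8% for ryr1b. The log2 fold change of ryr3 was −2.21 (SE 0.23, adjusted p = 0.000269). Its pool order was unlike that of ryr1a, since mutant pool 1 was the highest mutant pool and wild-type pool 4 the lowest wild-type pool. The deposited counts of ryr3 were fractional in every library except wild-type pool 2, so some of its reads were divided among matching places.

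The calsequestrins hold calcium inside the reticulum near the release sites. casq1a (ENSDARG00000038716) measured 1.43, 0.669, 0.651 and 1.00 CPM in the mutant pools, against 6.95, 8.62, 11.05 and 7.21 CPM in the wild-type pools. That is a log2 fold change of −3.17 (SE 0.30, adjusted p = 0.000171), with mutant pool 1 the highest of its group. casq1b (ENSDARG00000018105) had 7, 2, 7 and 1 counts in the mutant pools, against 298, 324, 293 and 209 counts in the wild-type pools. It was therefore close to absent from the mutant libraries while readily counted in every wild-type library. The summed counts, 17 in the mutant and 1124 in wild type, give a level 69.9-fold higher in wild type after scaling for depth, with a 95% exact interval of 43.4 to 120.3 that covers counting error only. The fitted log2 fold change was −6.09 (SE 0.47, adjusted p = 5.7e-05).

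SERCA pumps carry calcium back into the reticulum, and atp2a1 encodes the pump of skeletal muscle. atp2a1 (ENSDARG00000020574) measured 243.6, 579.6, 416.6 and 369.7 CPM in the mutant pools, against 1001 CPM in wild-type pool 1, 1965 in pool 2, 1187 in pool 3 and 2880.2 in pool 4. Wild-type pools 2 and 4 stood well above pools 1 and 3, with a ratio of 2.88 between the highest and the lowest. This was the widest wild-type spread of the 10 genes. The log2 fold change was −2.13 and its SE, 0.39, the largest after that of casq1b (adjusted p = 0.0037). The second pump gene, atp2a1l (ENSDARG00000035458), was barely counted, with 3, 1, 4 and 3 counts in the mutant pools and 10, 10, 11 and 11 in the wild-type pools. It was removed by the filter and has no test in the main fit. Its summed counts of 11 and 42 give a level 4.03-fold higher in wild type after depth scaling (95% exact interval 2.04 to 8.69, counting error only).

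**Figure D2:**
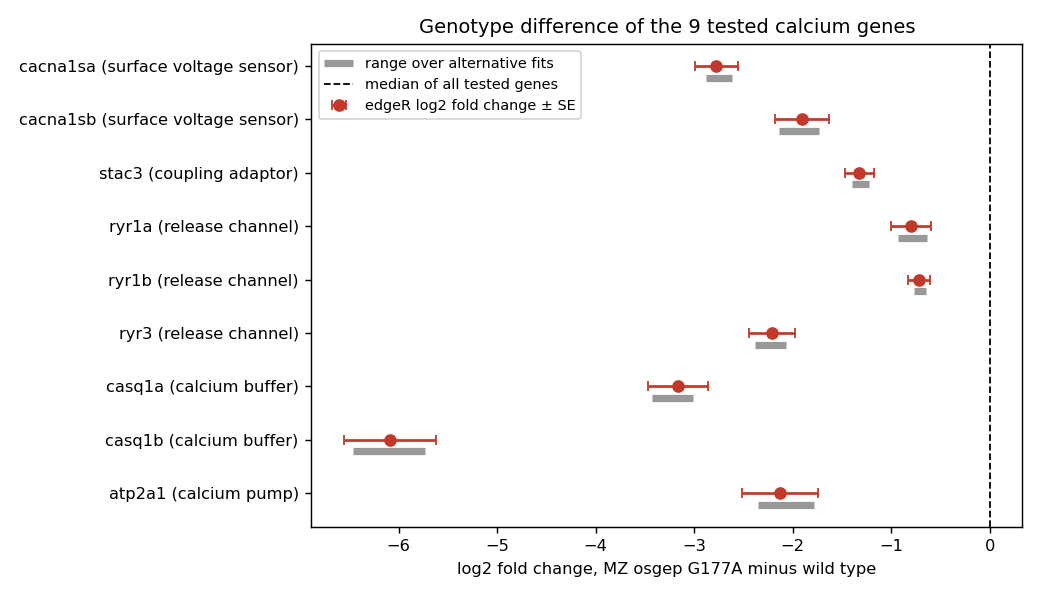
Log2 fold change (mutant minus wild type) of the 9 tested genes, ordered by their place in the coupling machinery. Red points and bars are edgeR estimates ± SE, and the dashed line is the median of all tested genes. Grey bars are the range over the other fits, leaving out the fit of summed pairs. The ryr1 genes lie nearest to the line, at −0.80 and −0.72, and casq1b farthest from it, at −6.09.

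Ordered by fold change, the genes ran casq1b, casq1a, cacna1sa, ryr3, atp2a1, cacna1sb, stac3, ryr1a and ryr1b. For each of the 8 neighbouring pairs in that order, the log2 ratio of the pair was compared between genotypes in every library. It was apart in 1 of the 8: casq1b over casq1a ran from −4.25 to −1.22 in mutant libraries and from 0.18 to 0.90 in wild-type libraries. The other neighbouring pairs overlapped, so the order within each of those pairs is not resolved by these pools. In the mutant, casq1b over casq1a rests on 7, 2, 7 and 1 counts of casq1b, which passed the filter only through its wild-type libraries. The order was taken from these same libraries, so the comparison describes it and does not test it. Genes further apart in the order were not compared in this way.

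Zebrafish carry a duplicate of many muscle genes, and 4 pairs of copies stand among the 10 genes. Whether the copies of a pair fell unequally was tested on the log2 ratio of their counts within each library. The calsequestrins stood out. casq1a made up 82.9%, 88.2%, 70.8% and 96.6% of the counts of its pair in mutant pools 1 to 4, against 34.8%, 40.4%, 44.2% and 46.8% in wild-type pools 1 to 4. The share of casq1a was thus higher in every mutant pool than in any wild-type pool. These are shares of counts, not corrected for transcript length. In the mutant they rest on 7, 2, 7 and 1 counts of casq1b, which passed the filter only through its wild-type libraries. The log2 ratio of casq1a over casq1b was 2.56 ± 1.23 in the mutant and −0.49 ± 0.31 in wild type (SD, n = 4 each). The difference of 3.06 had an exact two-sided permutation p = 0.0286, the smallest that 4 against 4 libraries allow, and 0.114 after Benjamini-Hochberg adjustment over the 4 pairs. With 4 pairs, 0.114 is also the lowest adjusted value that 1 pair can reach when the others do not follow it.

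cacna1sa held 17.2%, 9.46%, 7.95% and 12.1% of the counts of its pair in the mutant pools, against 25.2%, 17.7%, 19.8% and 13.98% in the wild-type pools. The copy of slow fibres thus tended to a smaller share in the mutant, but mutant pool 1 lay inside the wild-type range. The log2 ratio differed by −0.85, with an exact two-sided permutation p = 0.0571 and 0.114 after adjustment. ryr1a held 17.7%, 27.5%, 28.7% and 30.4% of the ryr1 counts in the mutant pools, against 25.9%, 24.5%, 23.9% and 33.8% in the wild-type pools. These ranges overlapped, and the log2 ratio differed by −0.09 (exact two-sided permutation p = 0.771). For atp2a1 over atp2a1l the difference was −0.12 (exact two-sided permutation p = 0.914), with few counts behind atp2a1l. Over the 4 pairs, 1 had an unadjusted p under 0.05 and 0 passed after adjustment.

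**Figure D3:**
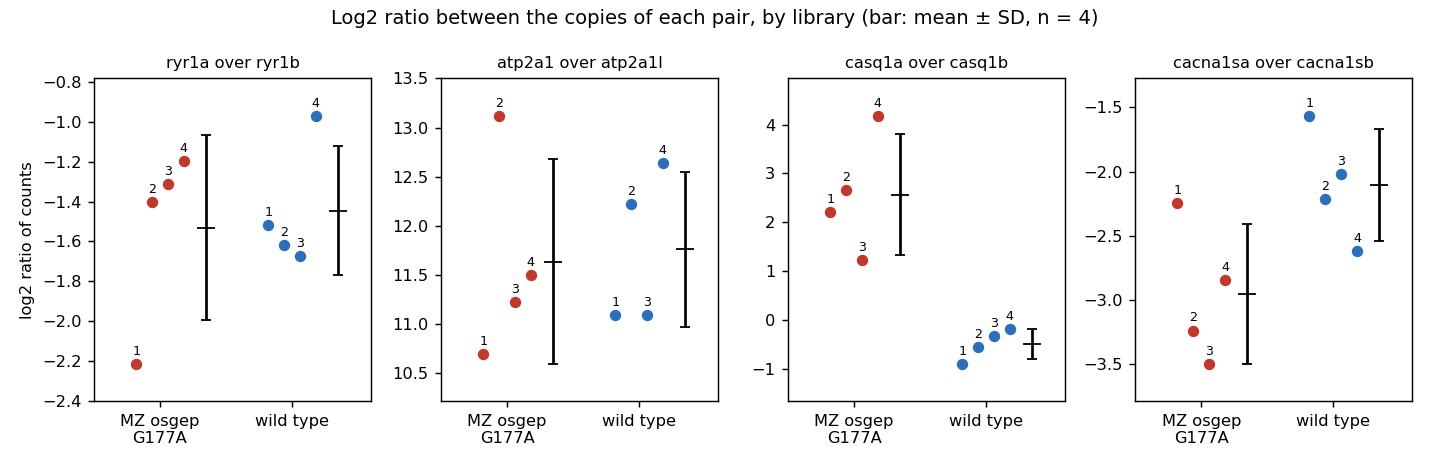
Log2 ratio of counts between the copies of each pair, by library, with mutant pools left and wild-type pools right in each panel. Points are libraries numbered by replicate and bars are mean ± SD of 4 libraries. The genotypes separate for casq1a over casq1b and overlap in the other panels.

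The pools of a genotype differed in an order that some of these genes shared and others did not. ryr1a, atp2a1 and cacna1sb were each lowest in mutant pool 1 among the mutants and higher in wild-type pools 2 and 4 than in pools 1 and 3. The summed level of 32 muscle markers followed the same order, at 3870.1, 4976, 5029 and 5163 CPM in mutant pools 1 to 4 and 11005, 16637, 13020.2 and 16860.4 CPM in wild-type pools 1 to 4. The share of counts from 81 ribosomal protein genes was 15.7%, 7.73%, 9.39% and 10.6% in the mutant pools and 15.2%, 11.3%, 14.0% and 8.52% in the wild-type pools. It ran opposite to the marker sum in wild type and was highest in mutant pool 1, but rose with the marker sum over mutant pools 2 to 4. With that share as a covariate, an alternative chosen after seeing the data, all 9 tested genes still fell. In that fit 6067 of all tested genes were called lower and 5642 higher, against 3665 and 3560 in the main fit. The log2 fold change of atp2a1 was then −2.32 with an SE of 0.11, that of cacna1sb −2.11 with an SE of 0.10 and that of ryr1a −0.94 with an SE of 0.09. In the main fit these SEs were 0.39, 0.27 and 0.21. For stac3 the SE was 0.147 in the main fit and 0.135 with the covariate, and for casq1b 0.467 and 0.305. Because the covariate was chosen with the pool values known, smaller SEs are no separate evidence. Members other than ryr1a, atp2a1 and cacna1sb, among them ryr1b, ryr3, stac3 and both casq1 genes, did not show this pool order. Genes outside the members and the 32 markers also had it, among them calr, itpr2 and the muscle progenitor gene pax3a. The share of all tested genes with this order was not counted.

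The markers of muscle fell unequally, and the counts below stand beside 16.3% lower and 15.8% higher among all tested genes. All 11 markers of fast fibres fell, with a median log2 fold change of −4.10, and their summed level ranged from 759.8 to 940.3 CPM in the mutant and from 4829.8 to 6219.6 CPM in wild type. Of 8 markers of slow fibres 2 fell and none rose, with a median of −0.33 and sums that overlapped, 830.2 to 1304 CPM in the mutant and 1006 to 2057 CPM in wild type. Most of these sums came from smyhc1, on average 1020 of 1172 CPM in the mutant and 1139 of 1373 CPM in wild type. Of 13 further markers of muscle, called general, 10 fell, with a median of −1.26. They include tnnc2, actn3a and actn3b, whose mammalian counterparts are known from fast fibres. Without these, a choice made after the values were seen, 7 of 10 fell, with a median of −1.11. Of 11 muscle progenitor and regulator genes 4 fell and none rose. The defining markers of muscle were present in every library, and heart markers ranged from 93.5 to 132.5 CPM in the mutant and from 77.0 to 105.3 CPM in wild type, with 2 higher, 2 lower and 3 not passing of 7 tested. Neuron markers summed to 542 to 653 CPM in the mutant and 743 to 940 CPM in wild type, with 5 of 8 lower. Smooth muscle markers were scarce, at 5.998 to 15.5 CPM in the mutant and 2.86 to 4.38 CPM in wild type, with 2 of 4 higher. The part of these marker levels in the fall of the 10 genes was not tested.

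Setting each gene against the muscle markers of its own library gave a different picture from the level in the whole pool. Per 1000 CPM of all 32 markers, ryr1a measured 5.09, 6.65, 5.83 and 6.44 CPM in the mutant pools, against 3.86, 3.05, 3.18 and 3.93 CPM in the wild-type pools. On the same scale ryr1b measured 23.6, 17.6, 14.5 and 14.8 CPM in the mutant pools, against 11.05, 9.37, 10.2 and 7.69 CPM in the wild-type pools. Both release channel genes were therefore higher in the mutant relative to muscle marker RNA, with no overlap, while their level in the whole pool was lower. casq1a, casq1b and cacna1sa were lower without overlap, with log2 differences of −1.61, −4.68 and −1.20 in the ratio to the markers. The remaining 5 genes overlapped between genotypes, with log2 differences from −0.64 for ryr3 to 0.27 for stac3.

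The direction of this ratio depended on which fibre markers were used. Against the fast markers alone, ryr1a, ryr1b and stac3 were higher in the mutant without overlap (log2 differences of 2.02, 2.10 and 1.51), casq1b was lower (−3.44), and the other 6 genes overlapped. Against the slow markers alone, whose sum was mostly smyhc1, 8 of the 10 genes were lower without overlap and ryr1b and stac3 overlapped. casq1b was the gene that lay lower without overlap against each of the marker sets. Its mutant level in all these ratios rests on 7, 2, 7 and 1 counts, and it passed the filter only through its wild-type libraries. The log2 difference of the marker sum itself was −2.82 for fast, −0.19 for slow and −1.58 for all 32 markers. It enters the ratio of every gene alike. The share of all tested genes without overlap on these ratios was not computed, so the counts cannot be read as particular to the 10 genes. These ratios are descriptions and carry no test.

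**Figure D4:**
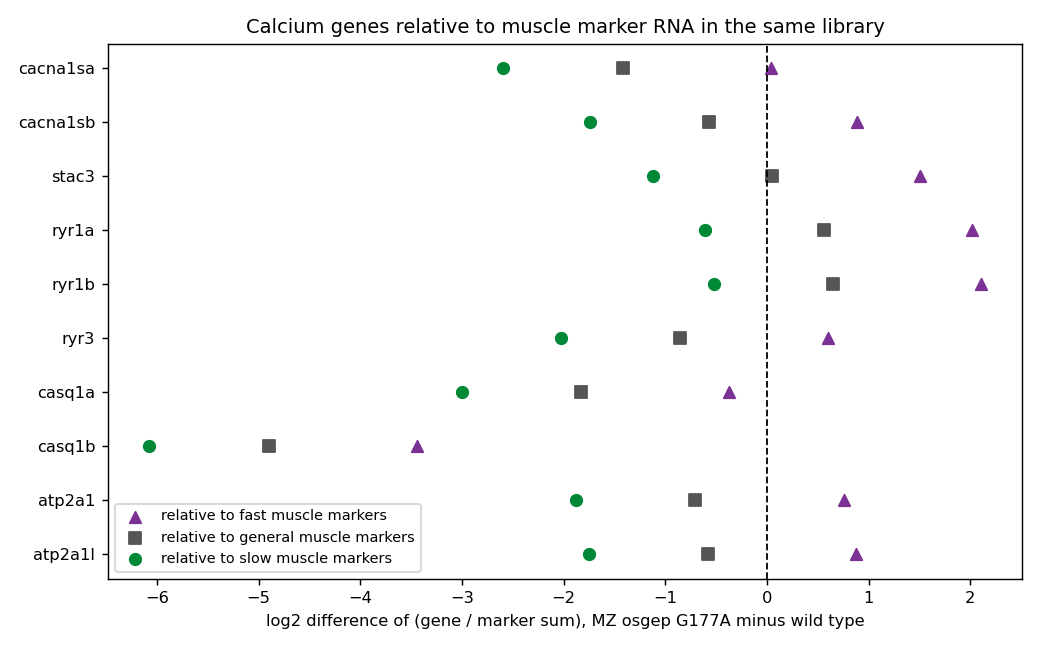
Log2 difference (mutant minus wild type) of each gene's level divided by the summed level of fast, general or slow muscle markers in the same library. Each symbol is a difference between the means of 4 libraries per genotype, and the dashed line marks an equal ratio. Triangles for fast markers lie below 0 for casq1a and casq1b and above 0 for the other genes, farthest for ryr1a and ryr1b, at 2.02 and 2.10. Circles for slow markers lie below 0 for all 10 genes.

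Other genes of the coupling apparatus fell less uniformly. A list of 24 further genes covered the triad, the contact between surface membrane and reticulum, and the muscle membrane system. It had 21 tested members, of which 12 fell, 1 rose and 8 did not pass, with a median of −1.004. Among all tested genes 16.3% fell and 15.8% rose. Of the 12 falls, the chloride channel gene clcn1a passed the filter only through its wild-type libraries. The beta subunit gene of the voltage sensor, cacnb1, stood at 21.4 ± 2.45 CPM in the mutant and 48.2 ± 5.18 CPM in wild type, and the alpha-2-delta subunit gene cacna2d1a at 44.7 ± 3.33 CPM in the mutant and 69.9 ± 3.85 CPM in wild type. The caveolin gene cav3, whose protein shapes the surface membrane of muscle, measured 29.0 ± 3.24 CPM in the mutant and 84.7 ± 13.2 CPM in wild type. The junctophilin gene jph1b, whose protein bridges surface membrane and reticulum, measured 24.95 ± 5.56 CPM in the mutant and 78.2 ± 21.7 CPM in wild type. The member that rose was asph, at 517 ± 70.2 CPM in the mutant and 262 ± 18.01 CPM in wild type, a gene that in mammals encodes both junctin, a partner of the release channel, and a hydroxylase found in many tissues. The counts do not separate these products.

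Of 23 genes for other calcium handling in the reticulum 22 were tested, and 6 fell, 2 rose and 14 did not pass, with a median of −0.20, beside 16.3% lower and 15.8% higher among all tested genes. The 4 falls with the smallest p were tmem38a, calr3a, fkbp1b and fkbp1ab. tmem38a encodes a potassium channel of the reticulum of muscle and measured 71.6 ± 6.52 CPM in the mutant and 183.5 ± 18.8 CPM in wild type. The immunophilin genes fkbp1b (2.98 ± 0.629 CPM in the mutant, 7.65 ± 0.789 CPM in wild type) and fkbp1ab (5.35 ± 0.532 CPM in the mutant, 10.99 ± 1.58 CPM in wild type) belong to a family whose proteins bind ryanodine receptors. A far more abundant gene of that family in the list, fkbp1aa, did not pass (adjusted p = 0.663 in edgeR's quasi-likelihood test). It measured 511 ± 141 CPM in the mutant and 566 ± 122 CPM in wild type. calr3a, a calreticulin gene, measured 122.8 ± 2.56 CPM in the mutant and 187 ± 9.32 CPM in wild type. The risers were the calcium store sensor gene stim1b, at 7.93 ± 2.44 CPM in the mutant and 2.23 ± 0.446 CPM in wild type, and the pump gene atp2a3, at 40.8 ± 10.04 CPM in the mutant and 20.6 ± 7.96 CPM in wild type. The genotypes overlapped for atp2a3, since wild-type pool 4 at 32.5 CPM exceeded a mutant pool at 32.3 CPM. Its call was lost without mutant pool 2 and without wild-type pool 1, 2 or 3, with adjusted p from 0.0569 to 0.0672 in edgeR's quasi-likelihood test. The list had 1 riser in those fits and 3 without wild-type pool 4. The adjusted p of the 6 genes named here as fallen or risen ran from 6.56e-05 for tmem38a to 0.0228 for atp2a3 in edgeR's quasi-likelihood test.

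The heart has its own versions of the same parts. The RNA came from whole embryos, so the counts of these genes are not specific to the heart. Of 8 genes listed as such versions, 1 fell, 2 rose and 5 did not pass, with a median of −0.15. These shares are to be read beside the 16.3% lower and 15.8% higher among all tested genes. The calsequestrin gene casq2, which is best known from the heart, fell with a log2 fold change of −2.16 (SE 0.24, adjusted p = 0.000358). It measured 16.1, 24.8, 22.6 and 18.9 CPM in the mutant pools, against 61.4, 106.5, 76.3 and 123 CPM in the wild-type pools. It shared the order of wild-type pools with atp2a1. The pump gene atp2a2b (255.0 ± 23.3 CPM in the mutant, 183.9 ± 15.99 CPM in wild type) and the release channel gene ryr2b (5.37 ± 1.45 CPM in the mutant, 1.16 ± 0.5098 CPM in wild type) rose. The other ryr2 gene in the list, ryr2a, measured 1.02 ± 0.857 CPM in the mutant and 4.41 ± 1.079 CPM in wild type. It had 0 counts in mutant pool 1 and did not pass (adjusted p = 0.0704 in edgeR's quasi-likelihood test). It did pass as lower without mutant pool 1 (adjusted p = 0.0112), with the replicate block (0.0476), under DESeq2 (0.0276) and with the ribosomal protein covariate (0.013), so that 2 of the 8 genes fell in the first 3 of these fits and 3 in the last. All 3 calsequestrin genes therefore fell. Among the SERCA genes atp2a1 fell, atp2a2b rose, atp2a3 rose with the dependence on single pools given above, and atp2a2a, at 14.3 ± 4.53 CPM in the mutant and 15.8 ± 5.88 CPM in wild type, did not pass.

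**Figure D5:**
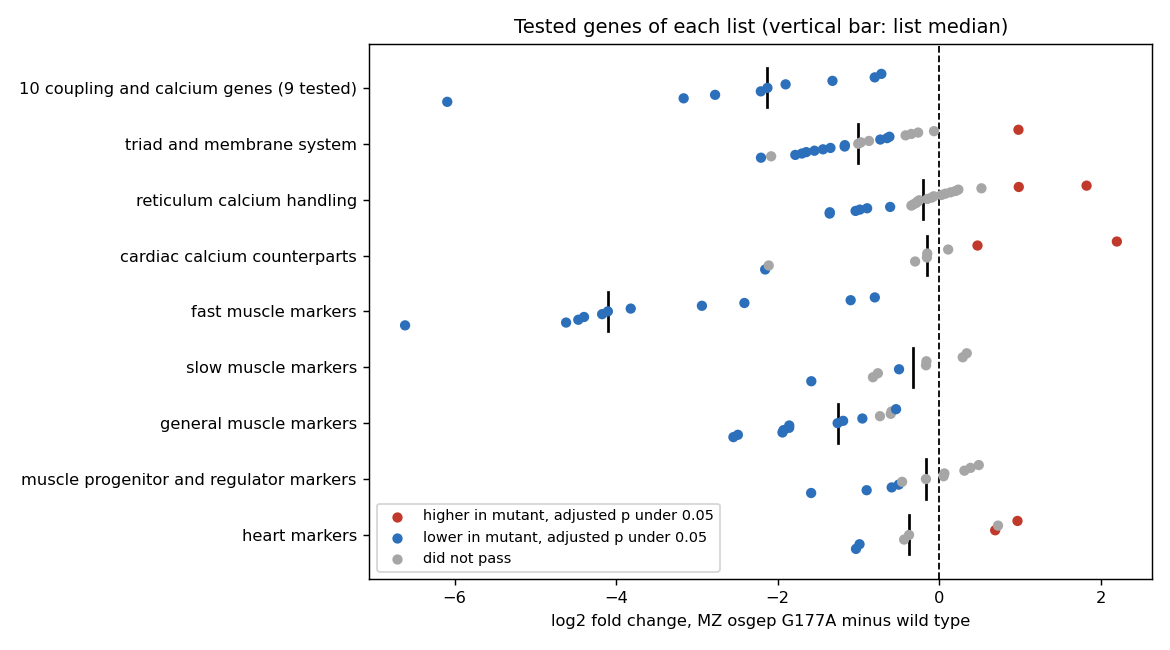
Log2 fold change (mutant minus wild type) of every tested gene in each list, with a vertical bar at the list median. Red and blue points passed an adjusted p under 0.05 as higher or lower in the mutant, and grey points did not pass. The 9 tested coupling genes all lie left of 0 with a median of −2.13, while the cardiac counterparts scatter on both sides with a median of −0.15.

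The genes whose profile over the 8 libraries was nearest to each coupling gene were sought among tested genes, leaving out those whose average log2 CPM was below 0. Nearness was the root mean square distance between centred log2 CPM profiles, with 0.25 CPM added to each value. It includes the difference between genotypes. For casq1a the nearest was mylpfa, a fast myosin light chain gene, at a distance of 0.18, followed by synpo2la at 0.20. For casq1b the nearest were nmrk2, which encodes a kinase of nicotinamide riboside, at 0.16 and the phosphofructokinase gene pfkmb at 0.32. The mutant means of casq1b (0.17 CPM) and pfkmb (0.05 CPM) lay below the 0.25 CPM added, so these distances depend in part on that addition. casq1b also passed the filter only through its wild-type libraries. For atp2a1 the nearest were cobll1a at 0.17 and casq2 at 0.23, and for cacna1sb the malic enzyme gene me2 and zbtb4, both at 0.14. For cacna1sa they were the transglutaminase gene tgm2a and trim101, both at 0.25, and for ryr3 the ceramide synthase gene cers4b at 0.16 and paplna at 0.17. The profiles with the smallest distances belonged to genes with modest falls. For stac3 they were bhlhe22 and dcun1d2a at 0.08 and 0.09, for ryr1a bsnb and alpk3b at 0.07 and 0.09, and for ryr1b b2m and myo3b at 0.08 and 0.09.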

How the data were processed

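The authors deposited expected counts (RSEM estimates, in part fractional) for each gene in each library, without scaling. Tools named per the submitters' processing notes are Trimmomatic, RSEM and STAR 2.7, with build danRer11. Their settings, the annotation and strand handling were not given in the sources used here. Per the labels' protocols, ribosomal RNA was depleted and cDNA was made with random primers. Expected counts were rounded. filterByExpr at its defaults (about 0.41 CPM in enough libraries) kept 22467 genes. After TMM scaling, the genotypes were compared two-sided by edgeR 4.0.16 under R 4.3.3, using glmQLFTest on a robust glmQLFit, and p-values were Benjamini-Hochberg adjusted across the 22467 genes. SE is the log2 fold change divided by the square root of F. CPM are TMM-scaled. Pair ratios used a prior of 0.5 counts and exact permutation tests in SciPy 1.17.1. Shares within a pair are shares of counts, not corrected for transcript length, so the genotypes can be compared in them but not the levels of the copies.

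The genes, lists and tests were chosen with earlier results of these data known. Named genes are the 10 members, osgep, and in each further list up to 4 genes per direction with the smallest p among those past the threshold. For each tested member the 2 nearest profiles are named too, with clone and locus identifiers passed over. After their values were seen, ryr2a, atp2a2a, fkbp1aa, single pools of atp2a3, smyhc1, calr, itpr2 and pax3a were added. Of the further lists, 24 of 27 triad and membrane system symbols matched (1 by a RefSeq synonym), 23 of 25 reticulum symbols and 8 of 8 cardiac symbols. On simulated counts for 22467 genes, edgeR recovered 14% of genes changed 2-fold and 70% of those changed 4-fold, and called 2 of 21790 unchanged genes. Only 200 genes were changed there, while 7225 were called in the data, so these shares do not give the recovery in the data. No library pair agreed within sampling noise (lowest chi-square per degree of freedom 5.8, wild-type pools 1 and 3). Alternatives were DESeq2 1.42.0, other scalings, no filter, a replicate block, summed pairs, and each library left out.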

Additional observations from a re-analysis of the deposited data

Results flagged for a closer look

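Among 66 groups of 4 values screened for a library far from the others, 6 held one, where chance gives about 1 in 20. Mutant pool 1 was the library in 4 of them. Its slow and fast marker sums, given below, are parts of its summed muscle markers, so these flags are not independent. Its summed muscle markers stood at 3870.1 CPM, against 4976 to 5163 CPM in the other mutant pools. Its slow markers summed to 830.2 CPM, against 1255 to 1304 CPM, while its fast markers summed to 940.3 CPM, above the 759.8 to 775.0 CPM of the others. fkbp1ab was at 6.14 CPM there, against 4.99 to 5.17 CPM. Wild-type pool 4 held the other flags, with atp2a2b at 207.6 CPM against 172 to 178 CPM, and atp2a3 at 32.5 CPM against 15.98 to 17.4 CPM. No value of the 10 coupling genes themselves was set apart in this way.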

How the results depend on the processing

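The 9 tested genes kept their direction and passed under DESeq2, RLE scaling, library totals, no filter and the replicate block. They also did so with the ribosomal protein covariate (added after seeing the data) and with each library left out. The largest adjusted p was 0.048, for ryr1a. Their median log2 fold change ran from −2.28 to −1.78 with libraries left out, and was −1.78 without wild-type pool 4. With the counts of copies summed, the 4 pairs passed as lower, at −0.74 for ryr1, −4.20 for casq1 and −2.03 for cacna1s. The pump pair repeated the −2.13 of atp2a1, which holds nearly all of its counts, so it is no separate check. On its own, atp2a1l was tested only with no filter and with single libraries left out. It passed as lower there, at −1.98 with no filter (SE 0.50, adjusted p = 0.0171 in edgeR's quasi-likelihood test). With a library left out, only its wild-type libraries let it through the filter of about 0.41 CPM. Its mutant pools reached at most 0.153 CPM, so those calls follow in part from the filter. With the ribosomal protein covariate 11709 genes changed against 7225, 13 against 8 of the reticulum list and 5 against 3 of the cardiac list. With library totals in place of TMM, 3161 genes rose and 3855 fell, against 3560 and 3665.

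The pools share replicate numbers, but deviations of same-numbered pools correlated at 0.72, 0.16, −0.32 and 0.07, so the numbers were not taken as pairs. With the replicate block 7193 genes changed and all 9 coupling genes fell. Sign flips over 4 pairs cannot go below 0.125 and 3 against 4 libraries cannot go below 0.0571, so no pair ratio could pass there. The atp2a1 over atp2a1l difference was 0.056 with a prior of 0.1 counts and ran from −0.62 to 0.19 with libraries left out, and that of ryr1a over ryr1b ran from −0.20 to 0.14. The casq1a over casq1b difference was 2.59 with a prior of 2 counts and ran from 2.52 to 3.51 with libraries left out.

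Relative to muscle markers the median log2 difference was −0.42, and it was 0.81 for fast markers alone, −1.81 for slow markers alone and −0.10 for their geometric mean. Fast markers alone gave 0.60 for ryr3, 0.75 for atp2a1, 0.037 for cacna1sa and 0.89 for cacna1sb, and slow markers alone gave −0.61 for ryr1a and −0.53 for ryr1b. These follow from the unequal fall of the marker lists. Depth limits atp2a1l and the mutant level of casq1b.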
